A study of Mus musculus with 18 samples.

Results

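The question of this comparison was which transcripts differ in differentiating muscle cells when the nuclear protein TAF3 can no longer bind phosphoinositides. RNA of C2C12 cells, mouse myoblasts that fuse into myotubes once serum is reduced, was hybridised to Affymetrix mouse gene arrays. Of 18 arrays in all, 6 made up the comparison: 3 of cells rescued with KK-TAF3 and 3 of cells rescued with WT-TAF3, every one of them with an shRNA against PIP4K2B and differentiated for 2 days in medium with 2% horse serum. In all cells of the series the endogenous TAF3 had been depleted by shRNA and replaced by murine TAF3, either wild type or KK-TAF3, a mutant of the PHD finger that keeps binding to H3K4me3 but not to phosphoinositides. The other arrays, 3 in each group, were of WT-TAF3 cells without PIP4K2B depletion, differentiated, and of all 3 genotypes after etoposide at 10 µM for 7 hours. The array labels give 2 days of differentiation, whereas the series description gives 3. The labels name no control shRNA for the cells without PIP4K2B depletion. The genotypes are stably transduced lines, so that a difference between KK-TAF3 and WT-TAF3 and a difference between the lines cannot be told apart. The arrays of a group were biological triplicates by the study's account, and p-values measure the spread within groups, pooled over all 18 arrays.

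TAF3 is a subunit of TFIID, the complex that binds core promoters and from which RNA polymerase II initiates. Its PHD finger reads trimethylated lysine 4 of histone H3, the mark of active promoters, and a basic patch near it binds phosphoinositides. PIP4K2B is a kinase that phosphorylates PI5P, so that its depletion raises nuclear PI5P. In myogenesis MYOD and MYF5 commit the myoblast, myogenin (MYOG) then drives terminal differentiation, fusion proteins such as myomaker (MYMK) join the cells, and the genes of the sarcomere, in their embryonic forms first, are switched on.

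The targeted genes were examined first. The log2 signal of Pip4k2b was 9.46, 9.64 and 9.55 on the WT-TAF3 arrays and 9.90, 9.83 and 9.84 on the KK-TAF3 arrays, against 10.69 ± 0.005 (SD, n = 3) without the shRNA. Every KK-TAF3 array thus lay above every WT-TAF3 array, by 0.31 (SE 0.10, limma adjusted p = 0.255), which did not pass the threshold, and all 6 lay below the cells without the shRNA. Whether this remaining difference in Pip4k2b has a part in the results below was not tested. Taf3 stood at 8.71, 8.82 and 8.78 with WT-TAF3 and at 8.59, 8.63 and 8.58 with KK-TAF3, a difference of -0.17 (SE 0.07, limma adjusted p = 0.456), and the signal cannot separate the introduced from the endogenous transcript. The label of differentiated cells was checked on muscle markers. Of the markers set, Myog, Mymk, Acta1, Myh3 and Tnnt3 had higher means in differentiated than in etoposide-treated WT-TAF3 sh-PIP4K2B cells. Myog was at 7.95 ± 0.13 against 6.93 ± 0.19 and Mymk at 9.67 ± 0.07 against 7.86 ± 0.22 (SD, n = 3 in each). The other markers set, Ckm, Ttn and Des, are not given, so the check rests on part of the markers only. The lists that hold them, muscle metabolism and the Z-disc, had lower means in differentiated cells. List means went both ways between these groups. They were higher in differentiated cells for the thin filament (8.803 against 8.608) and fusion (9.975 against 9.84). They were lower for the Z-disc (9.145 against 9.251), muscle metabolism (8.621 against 8.784) and myogenic transcription factors (9.566 against 9.699). The 6 arrays were alike in brightness, with medians over all clusters between 7.25 and 7.35, and the SD between the arrays of a group had a median over genes of 0.073 in WT-TAF3 and 0.0694 in KK-TAF3 cells.

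The genes lower in KK-TAF3 cells included 14 members of the muscle lists, among them Myog, Mymk and Acta1, and the higher ones included 3 of 46 measured in the growth factor list, led by Pdgfd. The muscle lists were the thick filament (4 of 28 measured genes lower), thin filament (6 of 23) and Z-disc (1 of 31). The others were calcium release (1 of 25), myogenic transcription factors (1 of 31) and fusion (1 of 34). The synapse, muscle metabolism and dystrophin lists were kept apart and held no lower gene and 1 higher. Of 19938 genes, 103 (0.517%) differed by more than 1.4-fold at an adjusted p under 0.05 (limma with Benjamini-Hochberg adjustment). Of these 60 (0.301%) were higher in KK-TAF3 cells and 43 (0.216%) lower. At an unadjusted p with the same fold limit 72 (0.361%) were higher and 51 (0.256%) lower. For all 103 genes every array of one group lay beyond every array of the other. This ordering was also common among all genes, with 12.9% where all KK-TAF3 arrays were above and 8.07% where all were below. The differences were moderate. Those of the raised genes ran from 0.49 to 1.58 on the log2 scale with a median of 0.60, and 7 exceeded 1. The falls ran from 0.49 to 3.79 with a median of 0.74, and 9 exceeded 1. The median difference over all genes was 0.0179. A further 54 genes higher and 38 lower had an adjusted p under 0.05 but a change below 1.4-fold, the nearest to that limit being Cox8b, a muscle form of a respiratory chain subunit, at -0.48 (limma, SE 0.08), and Nsg1 at 0.47 (limma, SE 0.07). In whole cultures, fewer cells that express a gene and less RNA of it per cell cannot be told apart.

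Among the genes that fell were the muscle actins Acta1 and Actc1, embryonic myosin Myh3, and myogenin. The bases just before their annotated starts are shown because TAF3 acts at the core promoter, together with those of the lowered Casq2, Tnnc1 and Myl4 and of the raised Pdgfd and Hgf. They are examples, and any contrast between them rests on which genes were picked. Each run is 110 bases, 5′ to 3′, ending at the base before the RefSeq start (GRCm38.p6). Capitals mark TATAAA, the E-box CANNTG to which MYOD and MYOG bind, the CArG box bound by SRF, and the MEF2 site, each searched on both strands. The patterns were exact, so near variants stay unmarked.
Myog, chr1:134289894-134290003, plus strand: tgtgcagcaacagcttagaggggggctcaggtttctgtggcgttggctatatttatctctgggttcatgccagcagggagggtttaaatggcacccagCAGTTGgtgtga
Acta1, chr8:123894776-123894885, minus strand: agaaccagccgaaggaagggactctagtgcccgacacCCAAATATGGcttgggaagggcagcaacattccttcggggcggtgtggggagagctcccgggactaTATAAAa
Actc1, chr2:114052876-114052985, minus strand: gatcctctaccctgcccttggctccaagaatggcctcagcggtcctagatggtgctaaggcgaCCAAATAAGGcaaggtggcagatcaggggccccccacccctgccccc
Myh3, chr11:67078190-67078299, plus strand: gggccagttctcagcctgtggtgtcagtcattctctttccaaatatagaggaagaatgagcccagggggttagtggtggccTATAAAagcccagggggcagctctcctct
Tnnc1, chr14:31208202-31208311, plus strand: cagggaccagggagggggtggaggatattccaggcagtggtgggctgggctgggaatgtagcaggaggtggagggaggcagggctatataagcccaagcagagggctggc
Myl4, chr11:104550553-104550662, plus strand: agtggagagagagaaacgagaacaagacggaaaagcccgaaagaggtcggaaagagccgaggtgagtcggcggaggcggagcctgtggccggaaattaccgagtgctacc
Casq2, chr3:102086305-102086414, plus strand: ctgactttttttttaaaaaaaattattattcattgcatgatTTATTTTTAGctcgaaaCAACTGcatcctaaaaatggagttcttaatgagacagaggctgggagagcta
Pdgfd, chr9:6168376-6168485, plus strand: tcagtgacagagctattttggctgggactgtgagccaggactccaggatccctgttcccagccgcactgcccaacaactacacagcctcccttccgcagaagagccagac
Hgf, chr5:16553385-16553494, plus strand: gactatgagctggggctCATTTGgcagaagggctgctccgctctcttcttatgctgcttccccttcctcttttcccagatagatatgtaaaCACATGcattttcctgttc
These promoters did not share one arrangement. A CArG box stood before both actin genes, followed in Acta1 by TATAAA. Myh3 had the latter alone. Casq2 held an E-box and a MEF2 site and Myog an E-box. The Myog window also held ctatatttat, which missed the MEF2 pattern only at its last base. None of these exact patterns was found in the windows of the lowered Tnnc1 and Myl4 or of the raised Pdgfd. Tnnc1 did hold tatataa, a near variant of TATAAA. The window of the raised Hgf held 2 E-boxes. A second RefSeq start of Hgf had no match.

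The same exact patterns were counted in the 250 bases before the start. RefSeq promoters were matched for 33 of the 43 lowered genes (44 windows) and 49 of the 60 raised genes (62 windows). TATAAA was present in 25% of the windows of lowered genes, 6.45% of those of raised genes and 12.4% of all 32851 windows. The E-box CANNTG was in 72.7%, 58.1% and 66.2%, and its form CAGCTG in 18.2%, 24.2% and 13.0%. The CArG box occurred in 6.82%, 0.0% and 1.47%, and the MEF2 site in 4.55%, 3.23% and 2.92%. For 12 of the 14 lowered muscle genes, described next, 13 windows were matched, of which 11 held CANNTG, 6 held CAGCTG and 4 held TATAAA. Several genes have more than 1 window and the numbers are small, so the shares are given as a description.

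The regulator of terminal differentiation and the fusion protein fell, while the commitment factors did not pass the threshold. Myog had log2 signals of 7.82, 8.07 and 7.96 with WT-TAF3 and 7.02, 6.82 and 6.94 with KK-TAF3. No arrays overlapped, and the level was 2.03-fold lower (log2 difference -1.02, SE 0.09, limma adjusted p = 2.19e-06). Mymk, the membrane protein that drives myoblast fusion, was at 9.62, 9.63 and 9.75 against 8.14, 8.10 and 8.06. Its difference of -1.57 (SE 0.11, limma adjusted p = 6.46e-08) was the largest among the muscle genes. Among 31 measured myogenic transcription factors Myog alone passed the threshold, and the list had a median of -0.02. Myod1 stood at 8.18, 8.21 and 8.09 with WT-TAF3 and 8.33, 8.45 and 8.29 with KK-TAF3, so that the KK-TAF3 arrays were the higher ones, by 0.20 (SE 0.08, limma adjusted p = 0.456). Myf5 differed by -0.10 (limma adjusted p = 0.91), Mef2c by 0.04 (limma adjusted p = 0.998) and Myf6 by 0.07 (limma adjusted p = 0.994). Of 34 genes of myoblast fusion 1 was lower, Mymk, and none was higher, with a list median of -0.04. Mymx, which encodes the partner of MYMK in fusion, was at -0.19 (SE 0.10, limma adjusted p = 0.768).

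A minority of the genes of the contractile apparatus passed the threshold, all of them lower. Of 28 measured genes of the thick filament 4 were lower and none higher, and of 23 genes of the thin filament 6 were lower and none higher. The list medians were -0.09 and -0.16, and 11 and 13 members had every KK-TAF3 array below every WT-TAF3 array, against 8.07% of all genes. In the thick filament the embryonic light chain Myl4 was at 10.23, 10.25 and 10.41 with WT-TAF3 and at 9.37, 9.33 and 9.39 with KK-TAF3. Myh3, the embryonic heavy chain, was at 7.21, 7.31 and 7.35 against 6.38, 6.25 and 6.43. In both genes the groups were far apart beside their spread, and both were about equally lower, Myl4 by a log2 difference of -0.94 (SE 0.08, limma adjusted p = 1.39e-06) and Myh3 by -0.93 (SE 0.09, limma adjusted p = 4.16e-06). The fast light chain Myl1 had the widest spread of the group, 7.74, 8.22 and 7.99 against 7.42, 7.05 and 7.04. Its difference was -0.81 (SE 0.13, limma adjusted p = 0.00235), and its call was lost when the 6 arrays were fitted without the others. Mybph, a binding protein of myosin, was lower by a difference of -0.73 (SE 0.10). Mylpf, another light chain of fast fibres, was at -0.33 (SE 0.07, limma adjusted p = 0.0268), below the fold limit.

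In the thin filament the skeletal actin Acta1 was at 11.14, 10.73 and 10.99 with WT-TAF3 and 9.70, 9.72 and 9.89 with KK-TAF3. It was 2.27-fold lower (log2 difference -1.18, SE 0.10, limma adjusted p = 1.55e-06). The cardiac actin Actc1, which immature skeletal muscle also expresses, was at 9.80, 9.52 and 9.82 against 9.01, 9.01 and 9.18. Its fall was smaller, -0.65 (SE 0.09, limma adjusted p = 0.000258). The calcium-binding troponin of slow and cardiac fibres, Tnnc1, was at 9.59, 9.99 and 9.81 against 8.72, 8.66 and 8.67. Its difference of -1.11 (SE 0.10, limma adjusted p = 3.36e-06) was close to that of Acta1. The tropomyosin-binding troponins Tnnt2 and Tnnt3 differed by -0.93 (SE 0.09) and -0.57 (SE 0.07). The troponins Tnni1 (-0.46, SE 0.08, limma adjusted p = 0.00279), Tnnt1 (-0.26), Tnnc2 (-0.26) and Tnni2 (-0.22) did not pass the threshold, though all their KK-TAF3 arrays lay below the WT-TAF3 arrays. Klhl41, a Kelch protein of the sarcomere, had a difference of -0.58 (SE 0.11, limma adjusted p = 0.00613), and its call was lost without KK-TAF3 replicate 2 or WT-TAF3 replicate 2 and in the fit of the 6 arrays alone, with values from -0.65 to -0.49 as single arrays were left out.

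**Figure D1:**
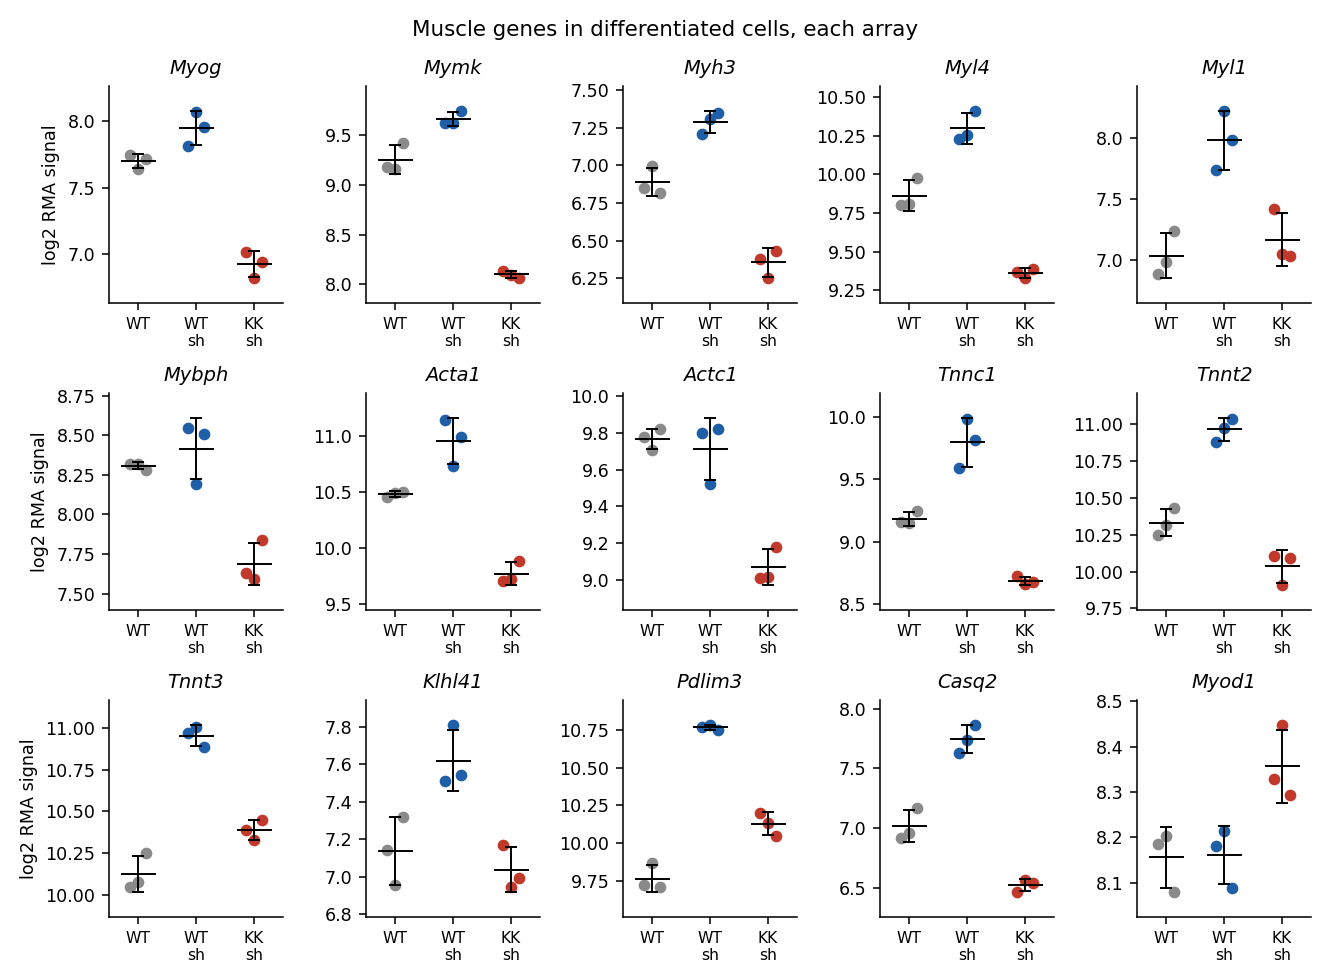
Log2 RMA signal (vertical axis) of 14 muscle genes past the threshold and of Myod1 on each array of differentiated cells, for WT-TAF3 cells without the PIP4K2B shRNA (grey, WT), with it (blue, WT sh) and for KK-TAF3 cells with it (red, KK sh); lines and bars are the mean and SD of 3 arrays. The KK-TAF3 arrays lie below all WT-TAF3 sh arrays for each of the 14 genes and above them for Myod1.

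Outside the filaments fewer muscle genes passed. The Z-disc list held 1 lower gene of 31, Pdlim3, a partner of alpha-actinin, at 10.77, 10.78 and 10.75 against 10.20, 10.13 and 10.05 (difference -0.64, SE 0.07, limma adjusted p = 5.93e-05). The giant protein gene Ttn was at -0.36 (SE 0.07, limma adjusted p = 0.00851), below the fold limit. Of 25 genes of calcium release and excitation 1 was lower, Casq2, a calsequestrin that stores calcium in the sarcoplasmic reticulum. Its signals were 7.63, 7.74 and 7.86 with WT-TAF3 and 6.46, 6.56 and 6.54 with KK-TAF3, a 2.33-fold fall (log2 difference -1.22, SE 0.08, limma adjusted p = 6.46e-08). The reticulum genes Srl (-0.44, SE 0.08), Atp2a1 (-0.41, SE 0.08) and Trdn (-0.47, SE 0.11) had adjusted p-values under 0.05 by limma but changes below 1.4-fold. For Trdn, which encodes triadin, this is the brightest of 19 clusters, all of them lower in KK-TAF3 cells and 15 by more than 1.4-fold. With every cluster tested 3 of the 19 passed both limits by limma, with differences from -1.33 to -0.67. None of 16 genes of the acetylcholine receptor and the synapse (median -0.08) or of 24 genes of muscle metabolism (median -0.01) passed by limma, although Ckm, the muscle creatine kinase, was at 8.40, 8.32 and 8.33 against 7.97, 7.80 and 8.04, a difference of -0.42 (SE 0.08, limma adjusted p = 0.0133). The brain isoform Ckb went the other way, at 0.44 (SE 0.07, limma adjusted p = 0.00133), also below the fold limit. Of 15 genes of the dystrophin complex 1 was higher and none lower. It was Sntb1, a syntrophin that anchors signalling proteins to dystrophin, at 9.51, 9.74 and 9.68 against 10.21, 10.23 and 10.37 (difference 0.62, SE 0.08, limma adjusted p = 0.000144).

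The level of these muscle genes in cells without PIP4K2B depletion is given beside them. Acta1 was at 10.48 ± 0.02, Myog at 7.70 ± 0.05, Mymk at 9.26 ± 0.15 and Tnnc1 at 9.18 ± 0.06 (SD, n = 3 in each) in WT-TAF3 cells without the shRNA, levels between those of KK-TAF3 and WT-TAF3 cells with it. This order held for the means of 10 of the 14 lowered muscle genes. Pdlim3 at 9.76 ± 0.09 and Tnnt3 at 10.12 ± 0.11 were in contrast lower there than in KK-TAF3 sh-PIP4K2B cells, where their means were 10.13 and 10.39, and so was Myl1, at 7.04 against 7.17. Actc1, at 9.77, was above the 9.71 of WT-TAF3 sh-PIP4K2B cells. The WT-TAF3 and KK-TAF3 arrays are those of the comparison itself, and no test was made of this order.

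Genes outside the muscle lists also fell. Sprr2b, which encodes a small proline-rich protein known from the cornified layer of skin, had the largest difference of all genes, with signals of 9.45, 9.55 and 9.46 with WT-TAF3 and 5.81, 5.79 and 5.49 with KK-TAF3. That is 13.8-fold lower (log2 difference -3.79, SE 0.13, limma adjusted p = 3.19e-12), and the level without the shRNA was 5.38 ± 0.22 (SD, n = 3). Its relative Sprr2e was higher in KK-TAF3 cells, from 5.64, 5.75 and 5.50 to 6.19, 6.28 and 6.33 (difference 0.63, SE 0.12, limma adjusted p = 0.0094), a call lost without KK-TAF3 replicate 3 or WT-TAF3 replicate 3, with values from 0.57 to 0.70 as single arrays were left out. Genes of the Sprr2 family are close in sequence and their probes may share signal, so the assignment to single members is uncertain. Among 29 small proline-rich and keratin genes these were the only calls.

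Several of the lowered genes encode secreted or surface proteins. C1qtnf3, a secreted relative of adiponectin, was at 10.44, 10.54 and 10.51 with WT-TAF3 and 9.21, 9.12 and 9.11 with KK-TAF3, a difference of -1.35 (SE 0.09, limma adjusted p = 6.46e-08). The adhesion molecules Lrrn1 and Ncam2 were lower by -1.22 (SE 0.08) and -1.19 (SE 0.11), the lowered pair among 52 genes of axon guidance and neural adhesion, of which 1 was higher, the protocadherin Pcdh7 at 0.64 (SE 0.08). Igfbp4, a binding protein of insulin-like growth factors, was at 8.87, 8.96 and 8.95 against 8.06, 7.93 and 7.98. It was the only call among 20 genes of that axis (difference -0.93, SE 0.07, limma adjusted p = 3.2e-07). In the proteoglycan list, with 30 genes measured, Prelp was lower by -0.77 (SE 0.10, limma adjusted p = 0.000253) and Aspn by -0.73 (SE 0.17, limma adjusted p = 0.0417), while Vcan was higher. Dkk3, of the Dickkopf family, fell from a mean of 7.47 to 6.85 (difference -0.62, SE 0.11, limma adjusted p = 0.00481). Ces2g, which the study names, was at -0.46 (SE 0.10, limma adjusted p = 0.018), below the fold limit. Of 22 genes of reserve cells and Notch 1 passed, the sialomucin Cd34, a marker of quiescent muscle precursors, at 10.78, 10.70 and 10.82 against 10.26, 10.29 and 10.20 (difference -0.52, SE 0.07). The call of Aspn was lost without any 1 of the 6 arrays, with values from -0.77 to -0.67, and with every transcript cluster tested.

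The remaining falls among the 20 largest were of varied function. Fmo1, a flavin monooxygenase, was at 11.13, 11.10 and 11.08 against 10.19, 10.13 and 10.21, a difference of -0.92 (SE 0.09, limma adjusted p = 5.11e-06). Fam107a was lower by -0.89 (SE 0.08), the phosphatase Ppef1 by -0.84 (SE 0.13), the lipase Lipi by -0.83 (SE 0.09), the secreted chaperone clusterin (Clu) by -0.80 (SE 0.12) and Irak3, an inhibitory kinase of Toll-like receptor signalling, by -0.77 (SE 0.10). Grouped by role after their values were seen, other genes past the threshold were Pcx, the pyruvate carboxylase (-0.69, SE 0.07), Acox2, a peroxisomal oxidase (-0.64, SE 0.08), and Hjv, the BMP co-receptor hemojuvelin, which muscle expresses (-0.74, SE 0.09).

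Growth factors and their receptors were among the genes that rose. Of 46 measured genes of this list 3 were higher and none lower, with a median of 0.07. In this list 20 members had every KK-TAF3 array above every WT-TAF3 array and 6 every one below, against 12.9% and 8.07% of all genes. Pdgfd, a ligand of the PDGF receptor, was at 6.71, 6.98 and 6.85 with WT-TAF3 and 8.43, 8.51 and 8.32 with KK-TAF3. The rise was 2.98-fold, the largest of all genes (log2 difference 1.58, SE 0.10, limma adjusted p = 6.46e-08), and KK-TAF3 cells also stood above the 7.26 ± 0.06 (SD, n = 3) of WT-TAF3 cells without the shRNA. Its receptors did not pass, with Pdgfrb at 0.02 (SE 0.13, limma adjusted p = 0.998) and Pdgfra at 0.20 (SE 0.14, limma adjusted p = 0.912). Hgf, hepatocyte growth factor, was at 8.99, 9.19 and 8.90 against 9.73, 9.77 and 9.64 (difference 0.69, SE 0.10, limma adjusted p = 0.00117). Its receptor Met was at -0.05 (SE 0.09, limma adjusted p = 0.995). Gfra1, a co-receptor for GDNF, rose from 11.26, 11.24 and 11.23 to 11.81, 11.75 and 11.72, a difference of 0.52 (SE 0.09, limma adjusted p = 0.00338) that was 1.43-fold and thus close to the limit. Kitl (0.37, SE 0.08) and Ntrk3 (-0.38, SE 0.07) had adjusted p-values under 0.05 by limma and changes below 1.4-fold in opposite directions. Of 34 Wnt ligands and antagonists 1 was higher, the secreted Sfrp2 at 0.59 (SE 0.10), and 1 lower, Dkk3. The call of Sfrp2 was lost in the fit of the 6 arrays alone. No gene of 38 in the BMP and TGF-beta list passed by limma, Bmp4 being at 0.47 (SE 0.08) and the antagonist Grem1 at 0.35 (SE 0.08).

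Several receptor genes were also called, a grouping made after the values were seen and not tested as a group. Ptgfr, the receptor for prostaglandin F, was at 6.93, 6.98 and 7.17 with WT-TAF3 and 8.29, 8.25 and 7.95 with KK-TAF3. The groups were well apart, and the difference was 1.14 (SE 0.09, limma adjusted p = 3.33e-07). Ptger4, a receptor for prostaglandin E, rose by 0.54 (SE 0.08), Calcrl, the calcitonin receptor-like receptor, by 0.65 (SE 0.09), and Rgs2, which limits signalling by G proteins, by 0.71 (SE 0.11). Rarb, a nuclear receptor for retinoic acid, was at 6.32, 6.26 and 6.43 against 7.07, 7.06 and 7.10 (difference 0.74, SE 0.10, limma adjusted p = 0.000209). Gpr141, an orphan G protein-coupled receptor, was lower, at 5.96, 6.24 and 6.32 with WT-TAF3 and 5.27, 5.36 and 5.69 with KK-TAF3 (difference -0.74, SE 0.17, limma adjusted p = 0.0339). Its call was lost without KK-TAF3 replicate 1 or 2 or WT-TAF3 replicate 2 or 3, with values from -0.86 to -0.65 as single arrays were left out. It was also lost in the fit of the 6 arrays alone and with every transcript cluster tested.

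Genes of the cell surface and matrix made up another part of the rises. Itga4, the alpha 4 integrin, was the only call among 20 integrins, at 7.03, 7.08 and 7.00 with WT-TAF3 and 7.91, 7.88 and 7.91 with KK-TAF3 (difference 0.86, SE 0.09, limma adjusted p = 1.46e-05). Vcan, the large chondroitin sulfate proteoglycan versican, was at 9.46, 9.45 and 9.51 against 10.25, 10.18 and 10.27, a difference of 0.76 (SE 0.16, limma adjusted p = 0.0257). The arrays of each of these groups were tight, but the SE draws on the spread within every group of the fit. The call of Vcan was lost without any 1 of the 6 arrays, with values from 0.74 to 0.79, and with every transcript cluster tested. It held when the 6 arrays were fitted without the others. Chst15, which sulfates chondroitin sulfate, rose by 0.67 (SE 0.08), Adam23, a disintegrin without protease activity, by 0.75 (SE 0.10), the receptor phosphatase Ptprf by 0.80 (SE 0.13) and the adhesion protein Amigo2 by 0.71 (SE 0.08). Among 34 matrix proteases and inhibitors 1 was higher, Mmp19 at 0.50 (SE 0.08). In this list 18 had every KK-TAF3 array above and 4 every one below, against 12.9% and 8.07% of all genes. The call of Mmp19 was lost without KK-TAF3 replicate 1, WT-TAF3 replicate 1 or WT-TAF3 replicate 3 and with quantile normalization within each treatment, with values from 0.45 to 0.58. None of 47 collagen and elastic fibre genes passed by limma (median -0.01).

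The other large rises were of intracellular and membrane proteins. Mctp1, a membrane protein with calcium-binding C2 domains, was at 7.92, 8.03 and 8.05 against 9.38, 9.46 and 9.43, a 2.68-fold rise (log2 difference 1.42, SE 0.11, limma adjusted p = 2.44e-07). Rtn4rl1, a relative of the Nogo receptor, was at 8.22, 8.26 and 8.31 against 9.49, 9.44 and 9.31 (difference 1.16, SE 0.09, limma adjusted p = 3.2e-07). Renbp, an epimerase of amino sugars, was at 8.94, 9.01 and 9.04 against 10.02, 10.02 and 9.95 (difference 1.0, SE 0.09, limma adjusted p = 2.17e-06). For all 3 the spread within a group was a small part of the difference. The unnamed transcript 2610524H06Rik was at 6.46, 6.48 and 6.63 against 7.82, 7.71 and 7.46 (difference 1.14, SE 0.17, limma adjusted p = 0.000834). Setbp1, a binding protein of SET, rose by 1.02 (SE 0.12), Ccdc3 by 0.89 (SE 0.09), Ndrg2 by 0.74 (SE 0.09), Enpp5 by 0.74 (SE 0.09), Tmem45a by 0.72 (SE 0.11) and Ak4, a mitochondrial adenylate kinase, by 0.74 (SE 0.13). Ak4 was the only call among 18 hypoxia-inducible genes. It was lost when the mean of its clusters was used, the dimmer one standing at 0.14. Prl2c5, a prolactin-family gene with near-identical neighbours, was at 1.0 (SE 0.22, limma adjusted p = 0.0353), and its call was lost without any 1 of the 6 arrays, with values from 0.91 to 1.11. That call was also lost with every transcript cluster tested and with quantile normalization within each treatment.

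**Figure D2:**
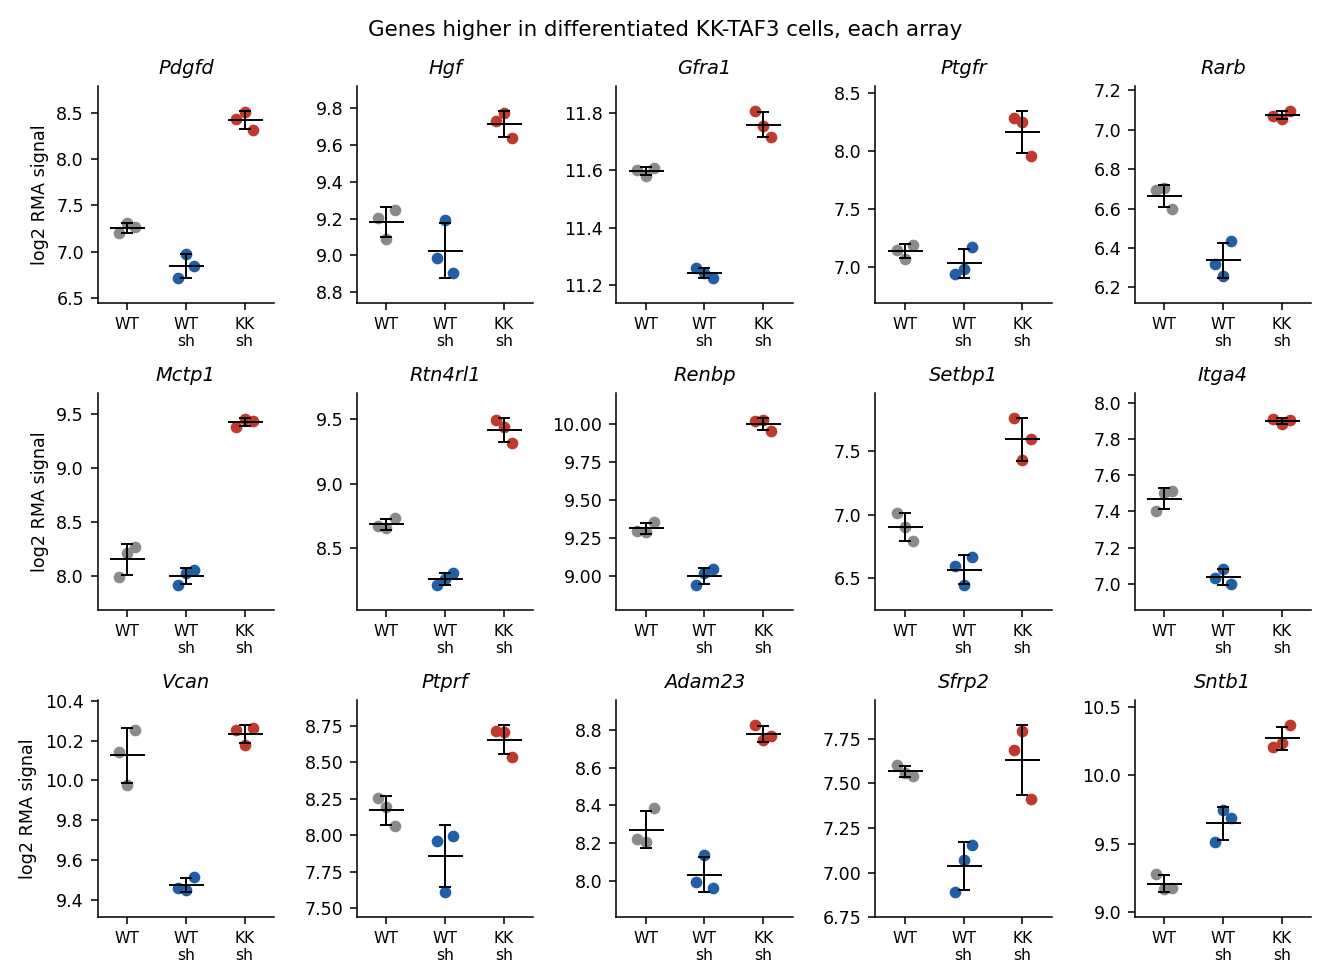
Log2 RMA signal (vertical axis) of 15 genes past the threshold higher in KK-TAF3 cells on each array of differentiated cells, for WT-TAF3 cells without the PIP4K2B shRNA (grey, WT), with it (blue, WT sh) and for KK-TAF3 cells with it (red, KK sh); lines and bars are the mean and SD of 3 arrays. The KK-TAF3 arrays lie above all WT-TAF3 sh arrays for each gene, with Pdgfd the farthest at a difference of 1.58.

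Other gene lists held few calls or none. Of 40 measured G2 and M phase genes none passed by limma, but the list had a median of -0.14, with every KK-TAF3 array below every WT-TAF3 array for 25 members and above for 1. Over all genes these orders held for 8.07% and 12.9%. The mean level of these 40 genes was 10.16 to 10.26 on the WT-TAF3 arrays and 10.03 to 10.07 on the KK-TAF3 arrays. In differentiated WT-TAF3 cells without the shRNA this mean was 9.94, below both. After etoposide the list went the other way, with a median of 0.142. The lowered muscle genes also stood lower in differentiated KK-TAF3 cells, and the part of the G2 and M phase list in the results was not tested. None of 40 DNA replication genes passed by limma (median -0.01), nor did any of 26 p53 targets (median -0.06), 19 cholesterol synthesis genes (median -0.07), 28 genes of TFIID and general transcription factors (median 0.01), 55 phosphoinositide enzymes (median -0.01) or 32 PHD finger proteins (median -0.01). In none of the lists just named, the G2 and M list included, did a member pass at an unadjusted p with 1.4-fold, and the same held for the muscle metabolism, synapse, BMP and TGF-beta, collagen, immediate early, housekeeping and other cell type lists. In the list of interferon response genes, with 28 measured and a median of -0.08, none passed by limma but 3 did at an unadjusted p, Ifit1, Ifit3 and Usp18, all lower in KK-TAF3 cells. Their differences were -0.76 (SE 0.28), -1.04 (SE 0.42) and -0.84 (SE 0.33), and the arrays of the groups overlapped for each. Ifit3 stood at 8.50 ± 1.17 with WT-TAF3 and 7.46 ± 0.49 with KK-TAF3 (SD, n = 3 in each). None of 26 genes of the unfolded protein response, 15 NRF2 targets, 14 G1 cyclins and CDK inhibitors, 20 smooth muscle and YAP genes or 31 genes of oxidative phosphorylation passed by limma or at an unadjusted p with 1.4-fold, and of 31 chemokines, cytokines and related secreted proteins 1 was lower, C1qtnf3. Of 26 immediate early and stress transcription factors none passed by limma, with Fosl1 at 0.41 (SE 0.06), below the fold limit. In this list 11 members had every KK-TAF3 array above every WT-TAF3 array and 1 every one below. Markers of other cell types held no call by limma, among 10 genes of fat cells, 11 of bone and cartilage, 11 of macrophages and blood, 8 of endothelium and 10 of nerve and glia, and their mean levels on the KK-TAF3 arrays overlapped those on the WT-TAF3 arrays. For fat cells these means were 6.87 to 7.00 with WT-TAF3 and 6.90 to 7.10 with KK-TAF3. The transcription factor Cebpa, listed as a fat cell marker, was at 0.43 (SE 0.08, limma adjusted p = 0.00703). The 14 housekeeping genes had a median of 0.00 and none passed by limma.

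**Figure D3:**
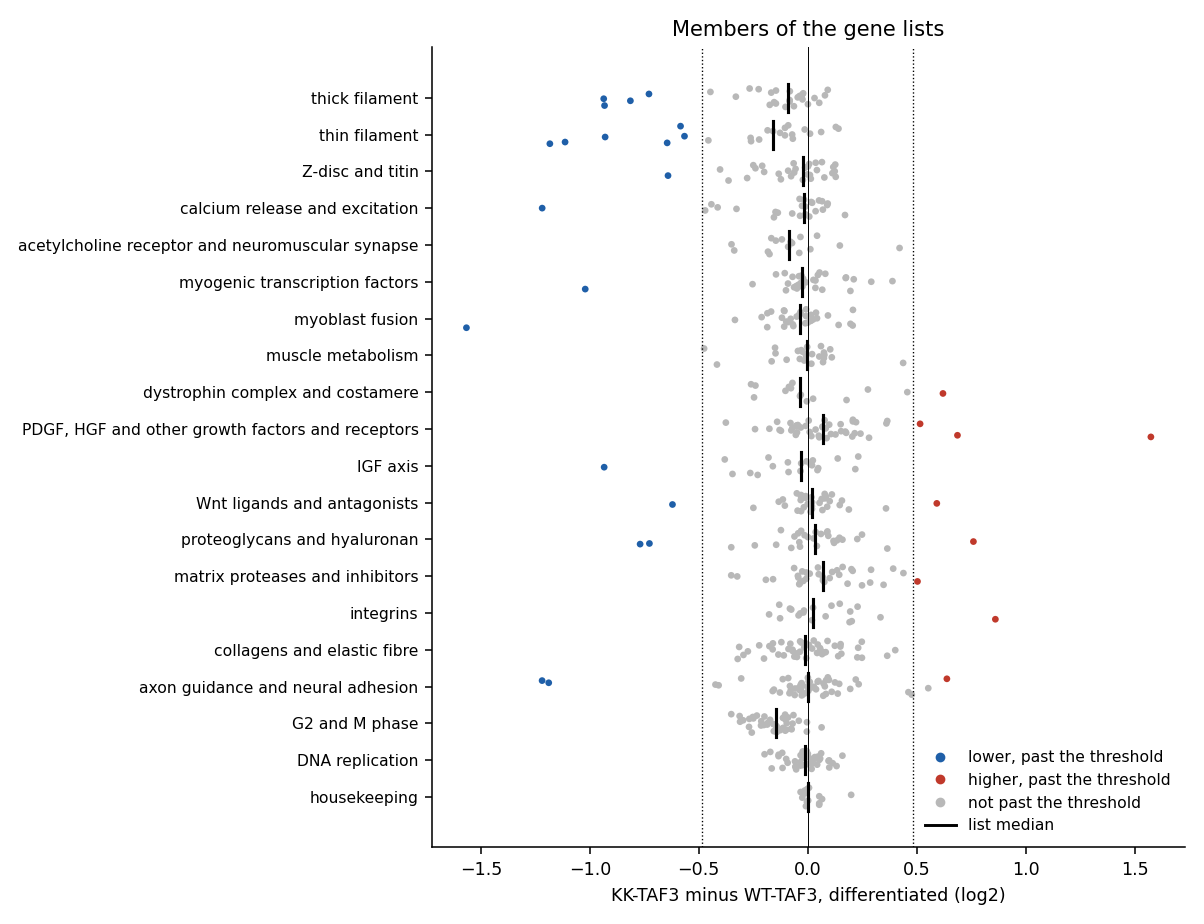
Difference between KK-TAF3 and WT-TAF3 cells (log2, horizontal axis) of each measured member of 20 gene lists, coloured where it passed the threshold, with the list median as a black line and dotted lines at 1.4-fold. Lower genes stand in the filament, Z-disc, calcium release, myogenic transcription factor and fusion lists at the top. They also stand in the IGF, Wnt, proteoglycan and axon guidance lists. The G2 and M phase list lies to the left of 0 with no member past the threshold.

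The same mutant comparison in etoposide-treated cells shares no array with that in differentiated cells. There 81 genes (0.406%) passed the threshold by limma, 68 higher (0.341%) and 13 lower (0.0652%) in KK-TAF3 cells. The count was 188 without WT-TAF3 etoposide replicate 1, 141 without KK-TAF3 etoposide replicate 1 and 52 without WT-TAF3 etoposide replicate 2. The median SD between arrays was also wider there, 0.137 with WT-TAF3 and 0.112 with KK-TAF3, and its part in these counts was not tested. Of the 60 genes higher in differentiated cells 18 were also higher after etoposide, which is 30.0% of the one list and 26.5% of the other. Every KK-TAF3 array after etoposide lay above every WT-TAF3 array for 40 of the 60, against 6.89% of all genes, and their median difference was 0.39. Of the 43 genes lower in differentiated cells 3 were also lower after etoposide, 6.98% of the one list and 23.1% of the other. For 11 of the 43 every KK-TAF3 array lay below, against 3.9% of all genes, for the other 32 the arrays overlapped, and the median difference was -0.14.

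Of the 7 rises above 1 on the log2 scale 5 were also called after etoposide, and Ptgfr and Setbp1 were not. The largest difference after etoposide among the 60 genes was that of 2610524H06Rik, at 6.29, 6.30 and 6.70 with WT-TAF3 and 7.86, 8.24 and 8.77 with KK-TAF3 (difference 1.86, SE 0.17, limma adjusted p = 6.8e-06). Pdgfd after etoposide was at 6.84, 6.79 and 7.02 with WT-TAF3 and 7.99, 8.37 and 8.35 with KK-TAF3 (difference 1.35, SE 0.10, limma adjusted p = 6.45e-07). Mctp1 was at 7.34, 6.97 and 6.98 against 8.06, 8.16 and 8.37 (difference 1.10, SE 0.11, limma adjusted p = 1.54e-05). Renbp differed by 0.90, Itga4 by 0.91, Ptprf by 0.92, Rtn4rl1 by 0.58, Enpp5 by 0.76, Ndrg2 by 0.51 and Amigo2 by 0.49, and each passed the threshold. For none of these genes named as higher in both treatments did the difference between treatments pass by limma. The genes lower in both treatments were Sprr2b, C1qtnf3 and Irak3. Irak3 was at 8.96, 8.70 and 8.87 against 8.06, 8.02 and 7.72 after etoposide, a difference of -0.90 (SE 0.10, limma adjusted p = 4.71e-05), near that in differentiated cells.

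None of the 14 lowered muscle genes passed the threshold after etoposide by limma, and none differed there by more than 1.4-fold. For 10 of the 14 the WT-TAF3 mean after etoposide was above that of differentiated KK-TAF3 cells. For the others, Mymk among them, it was not. Whether the level of these genes has a part in the lack of calls after etoposide was not tested. Over whole lists the median difference after etoposide was -0.13 for the thick filament, against -0.09 in differentiated cells, and -0.02 for the thin filament, against -0.16. Mymk was at 7.65, 8.08 and 7.84 with WT-TAF3 and 8.02, 7.65 and 7.70 with KK-TAF3 (difference -0.07, SE 0.11, limma adjusted p = 0.774). Tnnc1 differed by 0.03, Casq2 by 0.15, Myl4 by -0.02, Myh3 by -0.03 and Tnnt2 by 0.01. The difference of the mutant effect between treatments was tested directly, as an interaction in the same limma fit, and 30 genes passed the threshold (0.15%), 27 with a lower value in differentiated cells (0.135%) and 3 with a higher one (0.015%). Among the 43 genes lower in differentiated cells 20 passed this test, and among the 60 higher ones 2, Ptgfr and Setbp1. Since these genes were chosen on the differentiated arrays that enter the interaction too, the counts are a description. The muscle genes among the 20 were Mymk at -1.50 (SE 0.15, limma adjusted p = 8.64e-05), Casq2 at -1.37 (SE 0.12, limma adjusted p = 1.74e-05), Tnnc1 at -1.14 (SE 0.15), Tnnt2 at -0.94 (SE 0.12), Myl4 at -0.91 (SE 0.11), Myh3 at -0.90 (SE 0.12), Myog at -0.86 (SE 0.13), Actc1 at -0.77 (SE 0.12) and Pdlim3 at -0.61 (SE 0.11). Acta1 was lower after etoposide as well, by -0.45 (SE 0.10, limma adjusted p = 0.047), which is below the fold limit, and its interaction of -0.74 (SE 0.15) did not pass (limma adjusted p = 0.0503). The count of interaction genes was 60 without WT-TAF3 etoposide replicate 1 and between 18 and 27 without any other 1 of the 12 arrays. It was 18 without differentiated KK-TAF3 replicate 2, WT-TAF3 replicate 2 or WT-TAF3 replicate 3, and 19 without differentiated KK-TAF3 replicate 3.

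**Figure D4:**
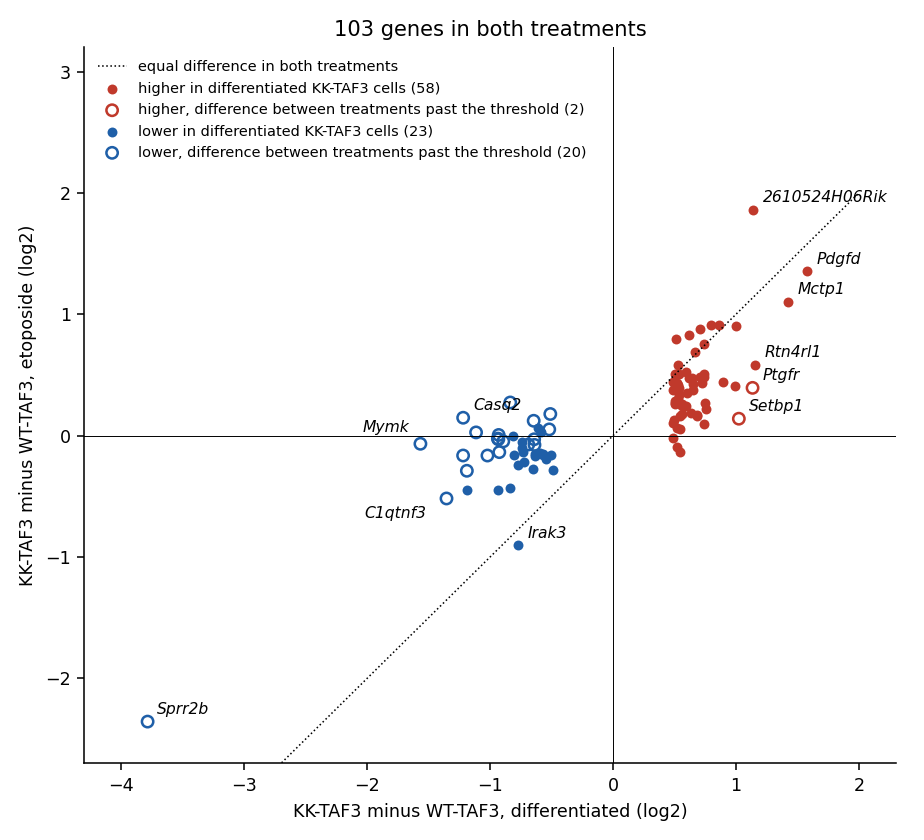
Difference between KK-TAF3 and WT-TAF3 cells after etoposide (log2, vertical axis) against that in differentiated cells (horizontal axis) for the 103 genes past the threshold in differentiated cells; open circles are genes whose difference between treatments passed the threshold, and the dotted line marks equal differences. Most lowered genes lie near 0 on the vertical axis, with Sprr2b, C1qtnf3 and Irak3 below it, whereas many raised genes lie above 0 in both treatments.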

How the data were processed

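The authors made the deposited log2 values by RMA in Affymetrix Expression Console, which corrects background, normalizes by quantiles and summarises the probes of a transcript cluster; no version is given in the sources used here. Values were used as deposited. Of 35556 clusters, 21789 had 1 gene symbol in the platform annotation, 1621 several and 12146 none. That annotation is of an earlier chip than the supplement of the study names, and gene names rest on it. The brightest cluster with 1 symbol was kept for each gene, giving 19938 genes. Arrays give no read depth, and the number of arrays limits the precision.

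The means of 6 groups were fitted to all 18 arrays with limma 3.58.1 in R 4.3.3 (residual df 12, prior df 6.05). Genes were called at a Benjamini-Hochberg adjusted p under 0.05 and a change above 1.4-fold. Fold changes are differences of group means, and SE is the moderated standard error. The test was checked on simulated data. The study's text gives the limits on p and fold but no test.

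The comparison, the gene lists and the rule for named genes were chosen with earlier results of these data known. Named were the 20 largest rises and falls without overlap, predicted genes left out, list members past the threshold, most measured genes the study names, and the leading genes of the interaction and of both treatments. Lists are described by counts and medians. Other genes were named outside this rule, after their values were seen, among them 2610524H06Rik, Gpr141, Calcrl, Ptger4, Chst15, Hjv, Pcx and Acox2. Alternatives varied the test, the prior, the filter, the gene summary, the scaling, the samples and a replicate block. Promoters are from RefSeq (GRCm38.p6). Tables and plots came from pandas 2.3.3, numpy 2.4.6 and matplotlib 3.10.9 under Python 3.11.15.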

Additional observations from a re-analysis of the deposited data

Results flagged for a closer look

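The effect of KK-TAF3 differed between differentiated and etoposide-treated cells, by a test of the difference itself in the limma fit, for 30 genes. The values are differences of log2 differences, differentiated minus etoposide, each from 3 arrays in every group. Among muscle genes the value was -1.50 for Mymk, -1.37 for Casq2, -1.14 for Tnnc1, -0.94 for Tnnt2, -0.91 for Myl4, -0.90 for Myh3, -0.86 for Myog, -0.77 for Actc1 and -0.61 for Pdlim3. Other genes lower in differentiated KK-TAF3 cells had values of -1.43 (Sprr2b), -1.11 (Ppef1), -1.06 (Lrrn1), -0.90 (Ncam2), -0.85 (Fam107a), -0.84 (C1qtnf3), -0.79 (Fmo1), -0.69 (Sla), -0.62 (Pcx), -0.57 (Cd34) and -0.56 (Acox2).

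A further 7 genes with a negative value had not been called in differentiated cells. Of them 5 were called higher after etoposide. Nefl, a neurofilament, was at -0.46 (SE 0.10) in differentiated and 0.67 (SE 0.10) in etoposide-treated cells, a value of -1.13. The alarmin Il33 was at 0.36 and 1.20, a value of -0.84, and the proteoglycan decorin, Dcn, at 0.37 and 1.12, a value of -0.76. Nptx1 was at 0.07 and 0.93, a value of -0.86, and F11r at 0.05 and 0.71, a value of -0.66. Tmem182 had a value of -0.67 and Tinagl1 of -0.62, with no call in either treatment. The value was positive for Setbp1 (0.88), Ptgfr (0.74) and Ccn5 (0.55). Setbp1 and Ptgfr had been called in differentiated cells, and Ccn5 was at 0.44 (SE 0.08) there, below the fold limit.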

How the results depend on the processing

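No gene called in differentiated cells changed its sign under any alternative, and 66 of the 103 calls held in every setting that tested them, 34 of 43 for lower and 32 of 60 for higher genes. Of the 14 lowered muscle genes 12 held, the exceptions being Klhl41 and Myl1. Leaving out 1 array gave 88 to 91 calls in differentiated cells, 52 to 188 after etoposide and 18 to 60 for the interaction. The extremes after etoposide were without WT-TAF3 etoposide replicate 2 and replicate 1, and 141 were called without KK-TAF3 etoposide replicate 1. Without a fold limit 195 genes were called in differentiated and 179 in etoposide-treated cells. With only genes above the median signal there were 57 in differentiated cells, all of them among the 103. The rest of the 103 did not lie above that signal and were not tested there. The interaction gave 143 genes (0.717%) at an unadjusted p with 1.4-fold and 16 with every transcript cluster tested; the cause of the latter was not tested. The replicate numbers did not pair the differentiated arrays compared, with correlations of deviations between KK-TAF3 and WT-TAF3 of -0.158, 0.126 and 0.0789. In etoposide-treated cells these correlations were -0.291, -0.194 and 0.478, so that only the arrays of replicate 3 deviated together. Between WT-TAF3 etoposide arrays with and without the PIP4K2B shRNA, which share the fit, they were 0.435, 0.332 and 0.559. Between KK-TAF3 etoposide arrays and WT-TAF3 etoposide arrays without that shRNA they were 0.169, 0.1 and 0.593. For the KK-TAF3 comparisons the replicate block gave 109 calls in differentiated cells, 83 after etoposide and 31 for the interaction. No call of the 103 was lost under the block. The number of arrays limits the calls of genes near 1.4-fold.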
